A study of Mus musculus with 5375 samples.

Results

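A set of 10 genes of the circadian clock (Arntl, Clock, Per1, Per2, Per3, Ciart, Nr1d1, Nr1d2, Dbp and Tef) were followed by name in lung endothelial cells (ECs) and in tumour cells (TCs) that had been seeded into the lung. They made up 10 of 35308 genes in the EC tables and of 35299 genes in the TC tables, and the choice was made with their levels in these samples known. Differences between EC time points and between TC sort gates are therefore given below as descriptions without a test for these 10 genes. ECs came from wild-type female BALB/c mice aged 8 to 12 weeks, either uninjected (day 0, 4 animals) or 1.5 and 3.5 days (3 animals each) after 4T1-GFP cells had been given into the tail vein by 2 injections. 4T1-GFP is a single mouse mammary carcinoma line, derived from this strain, with a green fluorescent reporter, stained before injection with CellTrace, a dye that thins out at each division. TCs of 4 animals on day 1.5 were sorted as intravascular or extravascular by whether an antibody to H-2Kd, given into the blood shortly before sampling, had reached them, so both gates came from the same animals. The latent gate took TCs of 4 other animals on day 3.5 in which the dye was still bright. Dye-poor (proliferative) TCs of day 3.5 were taken as 1 pool, because the cell annotation names 1 animal for all of them. The labels list 4 replicates and the paper describes sorting from 4, so the sources conflict. TCs from culture formed another pool. The uninjected animals received neither cells nor dye, and the hour of day at which animals were sampled is not given in the sources used here.

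The clock is a loop of transcription. ARNTL (also called BMAL1) and CLOCK bind together to E-box motifs and switch on Per1, Per2, Per3, Ciart, Nr1d1, Nr1d2, Dbp and Tef. PER proteins and CIART then hold back the ARNTL-CLOCK pair, NR1D1 and NR1D2 (REV-ERB alpha and beta) repress Arntl through ROR elements, and DBP and TEF act on D-boxes in further clock genes. In most tissues, lung among them, the transcripts that this pair drives swing over the day in the opposite phase to Arntl, whereas Clock itself changes little.

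All 10 are protein-coding genes of the mouse genome (GRCm38), with Arntl at chr7:113207465-113314126 and Tef at chr15:81802421-81826863, Per1 at chr11:69095217-69109960 and Dbp at chr7:45705088-45710203 on the plus strand. On the minus strand lie Clock at chr5:76209868-76304792, Per2 at chr1:91415982-91459324, Per3 at chr4:151003652-151044665, Ciart at chr3:95878503-95882251, Nr1d1 at chr11:98767932-98775333 and Nr1d2 at chr14:18204054-18239127. The motifs of the loop could be read in the start regions of the genes. RefSeq promoter windows on GRCm38.p6 (250 bases before to 50 after a start) were found for 9 of the 10 genes in 14 windows, and none was held for Per2. Stretches are printed 5′ to 3′ on the strand of the gene, with the motif in capitals, because they show which of these motifs stand in each start region. The E-box CACGTG, searched on both strands, was in 7.15% of 32851 windows over all genes and in those of Ciart, Per1 and Tef. Ciart carried 3 copies within the 102 bases at chr3:95882255-95882356 (minus strand), upstream of its start and outside any annotated exon:
Ciart: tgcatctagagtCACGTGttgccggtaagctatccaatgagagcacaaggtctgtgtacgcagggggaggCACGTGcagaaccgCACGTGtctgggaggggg
Tef had a further copy in its window at the gene's outer start, within exons and not shown. The single copies of Per1 (chr11:69098771-69098800, plus strand) and of a stretch of Tef (chr15:81811264-81811293, plus strand), which both lie within their gene and upstream of an internal start, were these:
Per1: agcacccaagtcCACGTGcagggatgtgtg
Tef: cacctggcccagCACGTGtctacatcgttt
The related CACGTT, in 4.68% of windows, lay just upstream of Nr1d1 on the opposite strand (chr11:98775388-98775417, minus strand), where it reads as its complement:
Nr1d1: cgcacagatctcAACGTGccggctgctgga
The D-box TTANGTAA was in 2.32% of windows and stood as 2 copies upstream of Per3 (chr4:151044804-151044882, minus strand):
Per3: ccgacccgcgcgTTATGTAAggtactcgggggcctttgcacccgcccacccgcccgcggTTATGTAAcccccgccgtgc
The ROR element core TAGGTCA, in 2.61% of windows, was found for Arntl past its annotated start and within exons (chr7:113207530-113207558, plus strand), the sequence through which REV-ERB proteins act:
Arntl: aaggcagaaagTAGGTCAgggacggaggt
The form TGGGTCA (3.98% of windows) and the cAMP response element TGACGTCA (1.79%) were in no window of the 10 genes, and none of the searched motifs was in the windows of Clock, Nr1d2 or Dbp. These matches are letters in fixed windows and were not tested as binding sites.

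The authors kept 2479 of 3455 sorted ECs (180 to 335 per animal) and 1566 of 1920 TCs (69 to 85 per library of the intravascular, extravascular and latent gates). The TC number is that of the deposited data, and the paper gives a slightly lower one. Estimated reads summed over kept cells came to between 75.6 and 129.5 (in units of 1e6 reads) per EC animal and between 31.9 and 49.9 in the same units per gate library of TCs. Levels below are CPM, the reads of a gene per 1e6 reads of its library, and the share of cells is the percentage of kept cells with any estimated read of the gene. In ECs the platelet-endothelial adhesion gene Pecam1 was read in 99.8% of cells at 1349 to 1927 CPM and the tight-junction gene Cldn5 in 98.2%, while the leukocyte gene Ptprc reached at most 0.0686 CPM and Pdpn at most 0.76 CPM. Summed over 9 immune marker genes, EC libraries held 2.53 to 50.1 CPM, against 2.21 to 118 CPM for 6 lung epithelial, 1.17 to 26.2 CPM for 8 stromal and mural and 1.93 to 17.5 CPM for 6 tumour marker genes, with overlap between days for each list. The 13 gCap marker genes summed to 6744 to 6930 CPM on day 0, 5965 to 6231 CPM on day 1.5 and 5415 to 7100 CPM on day 3.5, the 12 aCap marker genes to 1090 to 1453, 842 to 1091 and 750.3 to 939 CPM, and the 12 large vessel marker genes to 894 to 1677, 1357 to 2081 and 1245 to 1858 CPM. Day 1.5 was thus below day 0 without overlap for the gCap list, and day 3.5 below day 0 for the aCap list. The part of all these lists in the levels below was not tested. In TCs the keratin genes Krt8 and Krt18 were read in 99.7% and 100% of cells. No cell name occurred in more than 1 library. Each TC gate was sequenced on a lane of its own, so that gate and lane cannot be told apart, and the day 1.5 and day 3.5 EC animals also had 1 lane each. Library preparation added no molecular identifiers, so 1 strongly amplified cell can carry much of a library's reads for a low gene, and such cells are named where they matter.

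In ECs the genes of the REV-ERB repressors were furthest below their day 0 level on day 1.5. Nr1d1, which encodes REV-ERB alpha, stood at 68.4, 18.1, 92.9 and 147 CPM in the 4 animals of day 0, at 0.436, 5.31 and 5.45 CPM in the 3 animals of day 1.5 and at 51.0, 63.9 and 36.6 CPM on day 3.5. Every animal of day 1.5 lay below every animal of the other 2 days, and days 0 and 3.5 overlapped. The log2 fold change was -4.53 ± 0.96 (SE) from day 0 to day 1.5 and 3.77 ± 0.95 from day 1.5 to day 3.5. Of the reads of Nr1d1 in replicate 3 of day 1.5, 97.8% came from 1 cell, and without that cell the library held 0.121 CPM. The share of cells with reads was 11.3%, 9.29%, 21.8% and 40.6% on day 0, 1.92%, 2.05% and 1.79% on day 1.5, and 35.3%, 33.3% and 17.7% on day 3.5. The low sums of day 1.5 thus came with fewer cells that showed the transcript.

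Nr1d2, the gene of the related REV-ERB beta, followed the same course. It stood at 15.9, 47.2, 19.3 and 41.3 CPM on day 0, at 0, 2.33 and 0.103 CPM on day 1.5 and at 36.9, 10.7 and 34.2 CPM on day 3.5. In replicate 1 of day 1.5 none of 313 cells had a read, which allows a share of up to 0.958% (3 counts over the cells) or, by the exact binomial limit, 1.17%. The other day 1.5 animals had shares of 1.02% and 0.597%, against 3.60% to 11.1% on day 0 and 8.45% to 12.8% on day 3.5, with no overlap of day 1.5 with either. The log2 fold change was -5.32 ± 1.66 into day 1.5 and 5.07 ± 1.66 out of it.

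Among the period genes, whose products close the loop, Per2 differed most between days. Its levels were 20.3, 4.25, 22.8 and 30.2 CPM on day 0, 0.0849, 4.64 and 1.01 CPM on day 1.5, and 29.0, 32.1 and 15.9 CPM on day 3.5. Replicate 2 of day 0 lay below replicate 2 of day 1.5, so days 0 and 1.5 overlapped in level. Shares of cells did not: 1.28% to 4.10% on day 1.5 against 4.42% to 13.3% on day 0 and 6.02% to 13.2% on day 3.5. Per3 was at 27.7 to 85.5 CPM on day 0, at 6.66, 38.8 and 10.4 CPM on day 1.5 and at 41.9, 61.3 and 77.6 CPM on day 3.5, so that day 1.5 lay under day 3.5 in every animal but overlapped day 0. Per1 overlapped between all days: replicate 3 of day 1.5, at 43.4 CPM, stood within the range of day 3.5 (39.5 to 79.2 CPM), while replicates 1 and 2 were at 5.66 and 9.58 CPM. The log2 fold changes into and out of day 1.5 were -3.40 ± 1.17 and 3.74 ± 1.22 for Per2, -1.50 ± 0.65 and 1.68 ± 0.68 for Per3, and -0.77 ± 0.71 and 1.59 ± 0.77 for Per1.

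**Figure D1:**
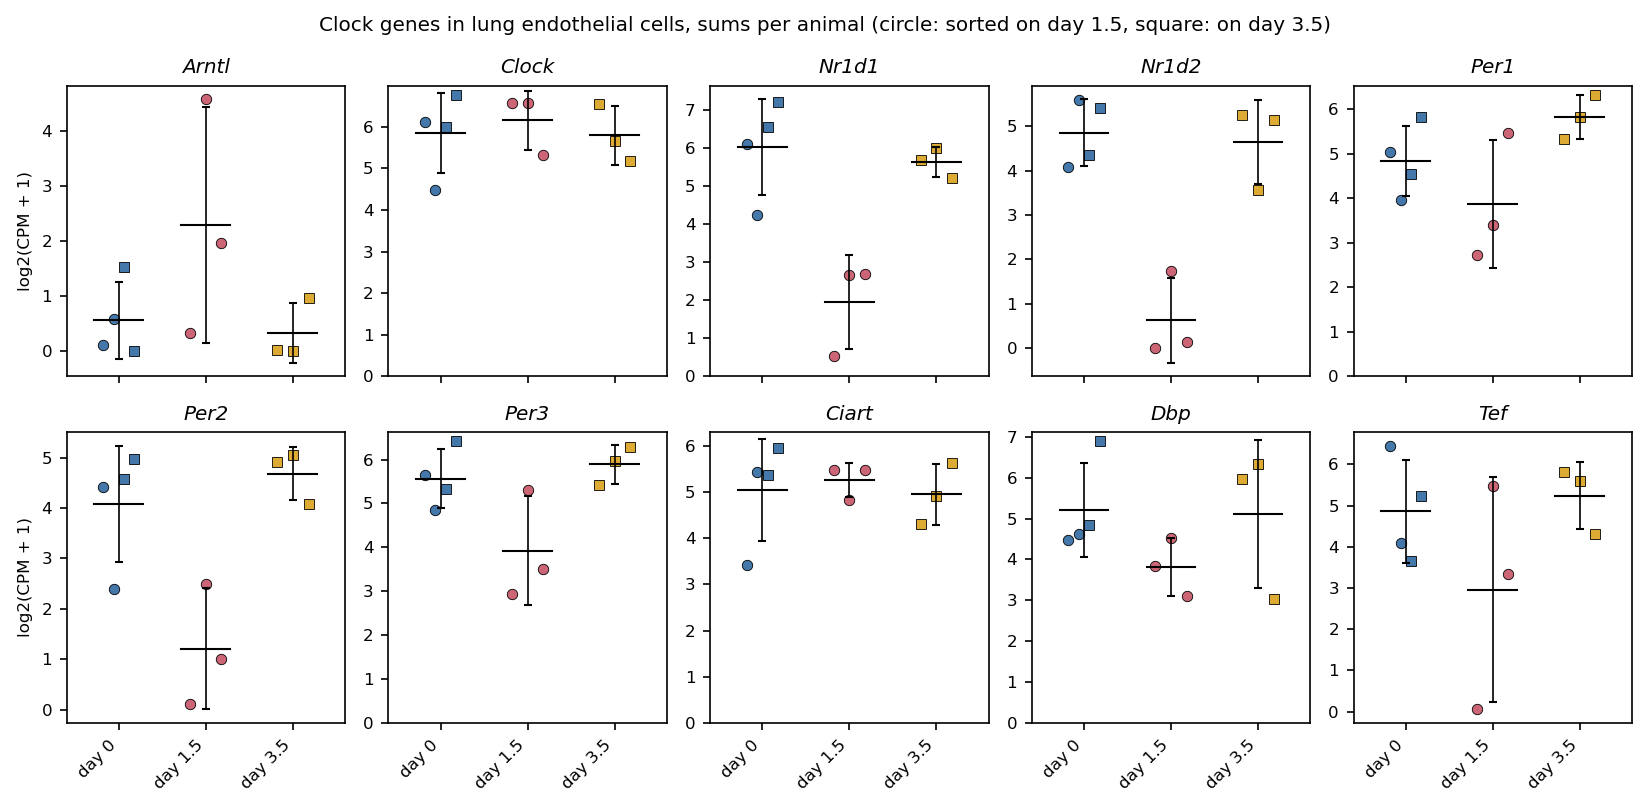
Level of each of the 10 clock genes in lung ECs on day 0, 1.5 and 3.5, as log2 of CPM plus 1 of the reads summed per animal. Each point is 1 animal (circles sorted with the day 1.5 animals, squares with the day 3.5 animals), lines are means and bars are SD over 4, 3 and 3 animals. Nr1d1 and Nr1d2 of all 3 animals of day 1.5 lie under all animals of the other days, whereas Clock and Ciart overlap throughout.

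The PAR-domain bZIP genes Dbp and Tef, direct outputs of ARNTL and CLOCK, were lower on day 1.5 by share of cells and overlapped by level. Dbp was at 21.2, 23.6, 27.6 and 119.7 CPM on day 0, at 13.4, 22.1 and 7.54 CPM on day 1.5, and at 61.5, 79.8 and 7.17 CPM on day 3.5. Replicate 3 of day 3.5 was thus as low as any animal of day 1.5, and its share of cells, 7.73%, was only just above the highest of day 1.5 (6.83%). Tef was at 11.6 to 86.8 CPM on day 0, at 0.0386, 43.3 and 9.18 CPM on day 1.5 and at 18.8 to 55.1 CPM on day 3.5. The high value of replicate 2 of day 1.5 rested on 1 cell with 95.1% of the reads, and without it the library held 2.14 CPM. Shares of cells with Tef were 0.958% to 7.17% on day 1.5, 7.96% to 17.8% on day 0 and 10.5% to 20.2% on day 3.5. The log2 fold changes into and out of day 1.5 were -1.82 ± 0.90 and 1.77 ± 0.94 for Dbp and -1.17 ± 1.36 and 1.20 ± 1.43 for Tef.

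The activators did not share this course. Arntl was barely read in ECs: at 0.0794, 0.490, 1.88 and 0 CPM on day 0, at 0.255, 22.9 and 2.90 CPM on day 1.5 and at 0.0108, 0 and 0.938 CPM on day 3.5. The value of 22.9 CPM came to 95.4% from 1 cell and was 1.06 CPM without it, so levels overlapped. More cells had a read of it on day 1.5 (2.56%, 3.41% and 5.67%) than on day 0 (0% to 1.42%) or day 3.5 (0% to 1.36%), the one gene of the 10 whose share was higher on that day. With every cell thinned to 50000 reads these shares were 0.664%, 1.07% and 3.74% on day 1.5 against 0% to 1.55% on day 0, and the groups then overlapped. The log2 fold change of Arntl was 3.79 ± 2.21 into day 1.5 and -4.79 ± 2.60 out of it. Clock, the partner of ARNTL, stood at 21.5 to 108 CPM on day 0, 39.4 to 93.8 CPM on day 1.5 and 34.9 to 93.4 CPM on day 3.5, with 13.5% to 20.6% of cells in every library, and its log2 fold changes were 0.16 ± 0.56 and -0.37 ± 0.60. Ciart, the repressor with 3 E-boxes printed above, also stayed within its range, at 9.72 to 61.2 CPM on day 0, 27.6 to 43.8 CPM on day 1.5 and 18.9 to 49.0 CPM on day 3.5.

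**Figure D2:**
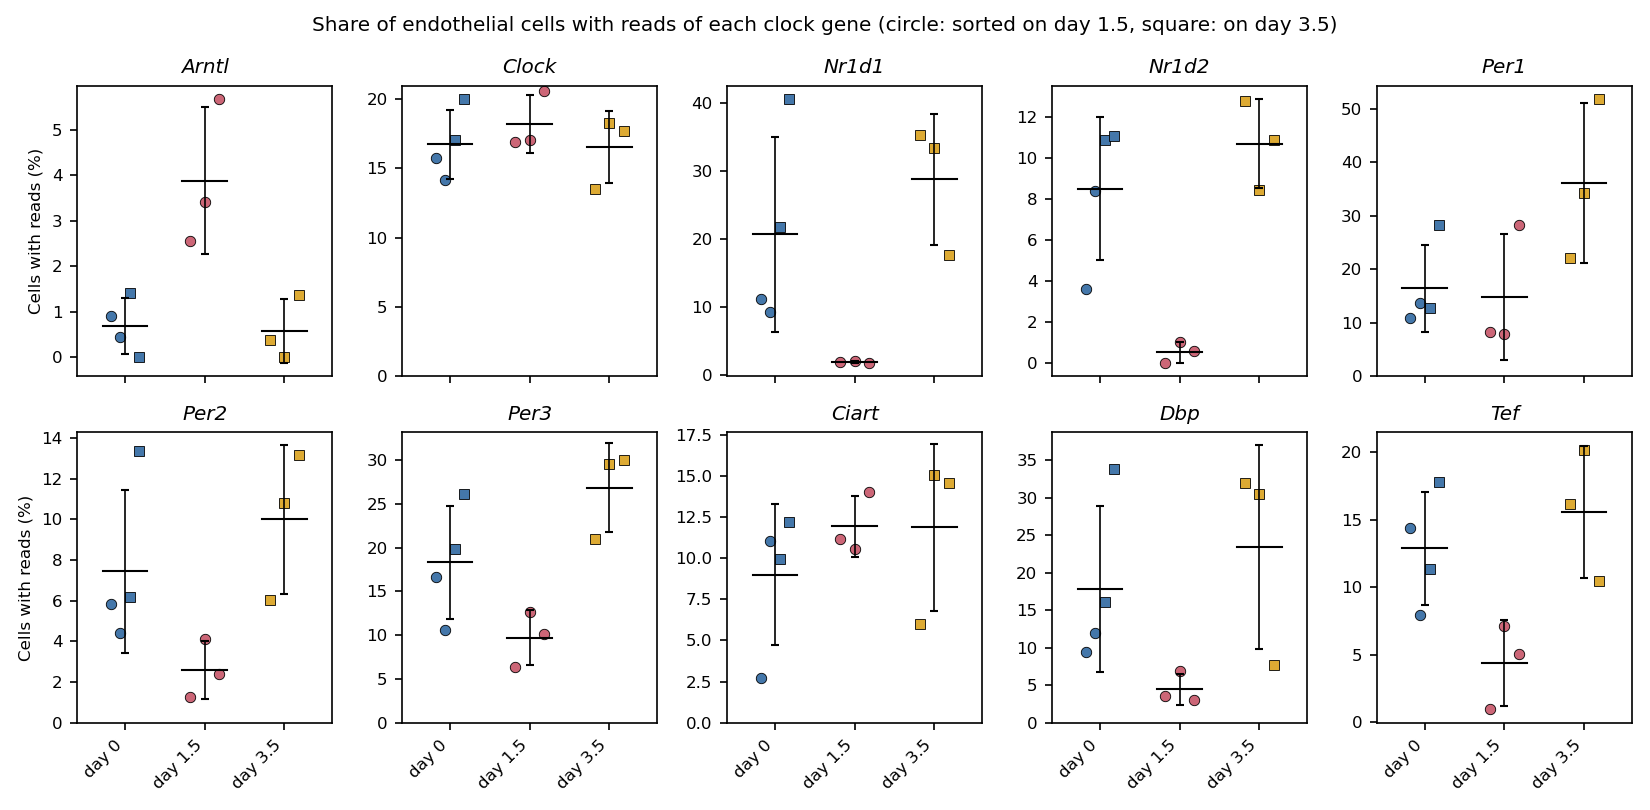
Percentage of kept ECs with any read of each clock gene, by day. Each point is 1 animal (circles sorted with the day 1.5 animals, squares with the day 3.5 animals), lines are means and bars are SD over 4, 3 and 3 animals. Shares of Per2, Nr1d1, Nr1d2, Dbp and Tef on day 1.5 lie under those of both other days, and that of Arntl lies above them.

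Counted over the 10 genes, 8 had lower fitted levels on day 1.5 than on day 0, with a median log2 fold change of -1.34 against -0.054 over 17585 genes tested. By CPM, 2 of the 10 (Nr1d1 and Nr1d2) were lower in every animal of day 1.5 than in every animal of day 0, as were 2.77% of all genes tested. By share of cells, 5 of the 10 (Per2, Nr1d1, Nr1d2, Dbp and Tef) were lower without overlap, against 1.11% of all genes, and 1 (Arntl) was higher, against 8.25%. From day 1.5 to day 3.5 the median of the 10 was 1.64, against -0.00034 over all genes. Levels of 4 genes (Per2, Per3, Nr1d1 and Nr1d2) were higher without overlap (4.70% of all genes), shares of 6 (Per2, Per3, Nr1d1, Nr1d2, Dbp and Tef) were higher (5.97%) and that of Arntl was lower (2.13%). Between day 3.5 and day 0, 0 of the 10 stood apart by level (7.88% of all genes in either direction) or by share (14.6%), and their median log2 fold change was -0.13 against -0.063. These comparisons share their libraries, and the counts only describe the pattern by which the genes were chosen. Over all genes, by edgeR's quasi-likelihood test with Benjamini-Hochberg adjustment, 0 of 17585 passed in each of the comparisons of day 1.5 with day 0 (0% of all genes), of day 3.5 with day 1.5 (0%) and of day 3.5 with day 0 (0%), with 1422, 798 and 1541 genes at an unadjusted p under 0.05. DESeq2 called 371, 137 and 508 of all genes, and limma on the log10 values called 50, 0 and 22.

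Depth and sorting date were set beside this pattern. With every cell thinned to 50000 reads (182 shallower ECs left out), the shares of Per2, Nr1d1, Nr1d2, Dbp and Tef on day 1.5 still lay below both other days. For Nr1d1 they were 0.935% to 1.33% against 6.48% to 31.4% on day 0 and 13.6% to 24.7% on day 3.5. The uninjected animals had been split, and 2 were sorted with the day 1.5 animals and 2 with the day 3.5 animals. The 2 sorted on the former date held Nr1d1 at 18.1 and 68.4 CPM, above all 3 day 1.5 animals (0.436 to 5.45 CPM), and Nr1d2 at 15.9 and 47.2 CPM, above their 0 to 2.33 CPM. The 2 sorted on the latter date held Nr1d1 at 92.9 and 147 CPM, above the 36.6 to 63.9 CPM of the day 3.5 animals of that date. Day 0 animals thus differed by date as well: the share of cells with Nr1d1 was 9.29% and 11.3% on the former date and 21.8% and 40.6% on the latter. With 2 animals against 3, no exact permutation test could go below p = 0.1, and none was made. Day and hour of sampling cannot be told apart.

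In the annotation 7 of the 10 genes overlap a neighbour, and for 4 of them that neighbour has a row in the count tables, so that its level can be given. Thra, the thyroid hormone receptor alpha gene which overlaps Nr1d1 on the opposite strand, stood at 62.4 to 86.4 CPM on day 0, 52.3 to 73.5 CPM on day 1.5 and 52.8 to 130.3 CPM on day 3.5. Its levels thus overlapped between all days, unlike those of Nr1d1. In TCs Thra was at 4.88 CPM or more in each latent library and at 1.55 to 3.78 CPM in intravascular libraries, without overlap, and it overlapped with extravascular libraries (0.392 to 7.22 CPM). Its part in the Nr1d1 levels was not tested. Sphk2 overlaps Dbp on the opposite strand and was at 0.728 to 41.99, 2.24 to 66.2 and 13.4 to 22.5 CPM on these days. Camta1 overlaps Per3 and the pseudogene Ube2n-ps1 overlaps Clock, both on the same strand, at 11.1 to 68.5 and 12.1 to 25.2 CPM over the 10 EC libraries. The protocol does not mark strand, so reads of these neighbours, and of those of Arntl, Ciart and Tef without a row of their own, cannot be separated from reads of the clock genes where exons overlap.

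Other genes of the clock and 2 sets of genes that respond to stress and handling were measured in the same fit. Of 20 further clock genes (among them Npas2, Cry1, Cry2, the Ror genes, Nfil3, Hlf and the kinases and ligases of PER turnover) 18 were tested, of 12 glucocorticoid-induced genes 12 and of 12 immediate early genes 12, and by edgeR 0 of each list passed in each EC comparison, against 0% of all genes. Since no gene at all passed, this does not show that the lists stayed alike between days. The highest of the further clock genes by level, the repressor Bhlhe41, was at 141 ± 29.4, 143 ± 24.7 and 185 ± 52.6 CPM on the days in order (SD over 4, 3 and 3 animals). DESeq2 called Npas2, a stand-in for CLOCK, higher and Hlf, a relative of DBP and TEF, lower on day 1.5 than on day 0 among the further clock genes, and these names were picked after their values were seen. Over all genes it called 232 higher and 139 lower, of 17454 with an adjusted p. Npas2 was at 0.0187 ± 0.0298 CPM on day 0 and 2.03 ± 2.42 CPM on day 1.5, near the floor and with an SD above the mean. The immediate early gene Fos, a mark of cell handling, was at 433 ± 80.7, 356 ± 57.9 and 361 ± 143 CPM on days 0, 1.5 and 3.5, and Jun at 969 ± 160, 667 ± 105 and 723 ± 66.2 CPM. Sgk1, induced by glucocorticoids, was at 93.3 ± 21.5, 83.2 ± 31.5 and 61.2 ± 19.6 CPM on the days in order. Fitted levels of 11 of the 12 glucocorticoid-induced genes were nonetheless higher on day 3.5 than on day 1.5, with a median log2 fold change of 1.52 beside the 1.64 of the clock genes, and the medians of that list were -0.24 from day 0 to day 1.5 and 1.02 from day 0 to day 3.5. The part of glucocorticoids in the clock gene levels was not tested.

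The genes most like Nr1d1 over the 10 EC libraries were found by Pearson's r of log2(CPM + 1) among 6452 genes of at least 20 CPM. The 10 clock genes were left out of this ranking, and among them Per2 (r = 0.95) and Per3 (r = 0.85) were closest to Nr1d1. The others were Eva1b (r = 0.89), Zbtb16 (0.88), Ankrd11 (0.86), Hbb-bs (0.85) and Usp7 (0.85). Zbtb16, a zinc finger gene on the glucocorticoid list, was at 77.7 ± 13.9, 8.72 ± 8.72 and 173 ± 77.6 CPM on the days in order (SD over 4, 3 and 3 animals). Its log2 fold change was 4.33 ± 0.84 (SE) from day 1.5 to day 3.5, with an adjusted p of 1 by edgeR. For Arntl the 5 were Cap1 (r = 0.90), Scfd1 (0.88), Prickle1 (0.88), Usp15 (0.86) and Plin2 (0.83), and the Arntl values behind them include the library in which 1 cell held 95.4% of the reads. These correlations describe 10 libraries that share their days, and each gene was picked for its r out of 6452.

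ECs were next split into general capillary cells (gCap, 1579 cells) and alveolar capillary cells (aCap, also named aerocytes, 604 cells), the thin cells of gas exchange. The classes came from module scores of marker genes that hold none of the 10 clock genes, and 341 and 461 cells lay within 0.1 of a limit of either class. Within animals 0 of the 9 clock genes tested differed between gCap and aCap by edgeR with the animal as a block, against 8.90% of 13445 genes, and Arntl was too low to be tested. Per2 was at 13.1 ± 13.4 CPM in gCap and 21.0 ± 18.0 CPM in aCap (SD, n = 10), with a log2 difference of -1.53 ± 0.66 (SE) and an adjusted p of 0.200. Ciart was at 47.8 ± 22.8 CPM in gCap and 17.3 ± 20.6 CPM in aCap, higher in gCap in 8 of 10 animals, with a log2 difference of 1.80 ± 0.96 and an adjusted p of 0.327. Both values missed the threshold, which does not show that the classes act alike. Over all genes the median log2 difference was 0.25 in this fit and -0.19 with DESeq2, so that only differences well beyond that shift have a direction. DESeq2 called 1 of the 10, Per2, lower in gCap, against 7.60% of all genes with that direction and an adjusted p by this tool. Among the other lists edgeR called 3 of 9 glucocorticoid-induced genes (Sult1a1 higher in gCap, Tsc22d3 and Cdkn1a lower) and 1 of 12 immediate early genes (Ier2, lower).

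Nr1d1 of day 1.5 was below both other days in every gCap library, and in aCap it was below day 3.5 and overlapped day 0 by level. In gCap, Nr1d1 was at 84.5 ± 62.5, 0.183 ± 0.014 and 46.1 ± 10.3 CPM on days 0, 1.5 and 3.5 (SD over 4, 3 and 3 animals). In aCap it was at 52.7 ± 44.7, 6.44 ± 10.4 and 56.4 ± 21.5 CPM, with 18.5 CPM from 1 of 88 cells in aCap replicate 3 of day 1.5 and 0.204 CPM in aCap replicate 2 of day 0. By share of aCap cells day 1.5 (1.14% to 2.41%) lay below day 0 (5.17% to 52.3%) and day 3.5 (26.2% to 50.7%). Nr1d2 was at 41.6 ± 23.1, 0.782 ± 1.20 and 27.8 ± 20.1 CPM in gCap and at 12.7 ± 6.01, 1.30 ± 2.26 and 12.9 ± 12.8 CPM in aCap. For the difference of the day effect between the classes, 0 of the 10 passed from day 0 to day 1.5 (0% of 16713 genes), from day 1.5 to day 3.5 (0%) and from day 0 to day 3.5 (0%) by edgeR, with 634, 522 and 701 of all genes at an unadjusted p under 0.05. The largest for Nr1d1 was -3.90 ± 2.27 on the log2 scale (adjusted p = 1), so a class difference of several log2 units could not be told from none.

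In TCs the latent gate of day 3.5 stood highest among the gates for several of the genes. Nr1d1 was at 19.3, 10.3, 19.6 and 20.2 CPM in intravascular TCs, at 24.3, 5.76, 5.84 and 11.95 CPM in extravascular TCs and at 56.8, 79.6, 63.9 and 43.4 CPM in latent TCs. Every latent library lay above every library of both day 1.5 gates. The log2 fold change was 2.20 ± 0.41 (SE) against extravascular and 1.58 ± 0.40 against intravascular TCs. Its share of cells was 50.0% to 69.4% in latent libraries, 21.7% to 29.3% in extravascular and 31.2% to 41.8% in intravascular libraries. The proliferative pool, sampled on the same day as the latent cells, held 31.5 CPM and the culture 16.7 CPM, each without a replicate. By the cell annotation the proliferative pool came from the animal of latent replicate 4.

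Per1 was at 1.92, 3.47, 1.65 and 2.37 CPM in intravascular, 1.41, 3.37, 4.31 and 3.06 CPM in extravascular and 14.5, 14.4, 11.8 and 7.02 CPM in latent libraries. The latent libraries again lay above all others of the gates, with log2 fold changes of 1.82 ± 0.38 against extravascular and 2.12 ± 0.38 against intravascular TCs. The proliferative pool, at 10.8 CPM and with 40.1% of cells, stood within the range of the latent libraries by level and next to their 36.9% to 40.0% by share. Per3 was at 2.63 to 3.46 CPM in intravascular, 1.03 to 3.49 CPM in extravascular and 8.68 to 15.1 CPM in latent libraries, with log2 fold changes of 1.93 ± 0.37 and 1.66 ± 0.37 for latent against the 2 gates. The proliferative pool, at 5.71 CPM, lay between them. Per2 was read little, at 0.136 to 1.64 CPM on day 1.5 and 1.47 to 4.25 CPM in latent libraries, and overlapped between latent and intravascular TCs.

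Ciart set the culture apart. It was at 88.7 CPM in the culture pool and was read in 75.3% of its cells (95% exact binomial interval 70.6% to 79.7%), a share that was 61.9% with cells thinned to 50000 reads. In the lung it was at 11.5, 8.11, 5.84 and 34.4 CPM in intravascular, 5.24, 7.30, 1.20 and 3.46 CPM in extravascular, 27.5, 25.4, 24.0 and 21.4 CPM in latent libraries and at 9.52 CPM in the proliferative pool. A single cell held 87.8% of its reads in intravascular replicate 4 and 87.5% in extravascular replicate 2, and without that cell these libraries were at 4.28 and 0.931 CPM, so that the overlap of intravascular with latent libraries rested on 1 cell. All 13 values from the lung were thus below the culture, which is 1 pool and has no replicate. Extravascular TCs were lower than intravascular TCs of the same animal in each of the 4 pairs, by -1.84 ± 0.55 on the log2 scale in the unpaired fit, while the groups overlapped, and latent TCs stood above extravascular TCs by 2.36 ± 0.56 without overlap. Without intravascular replicate 4 the value for extravascular against intravascular TCs was -1.05. That for latent against intravascular TCs then went from 0.51 to 1.31. In latent TCs the share of cells was 27.1% to 33.8%, against 4.35% to 10.7% in extravascular TCs.

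**Figure D3:**
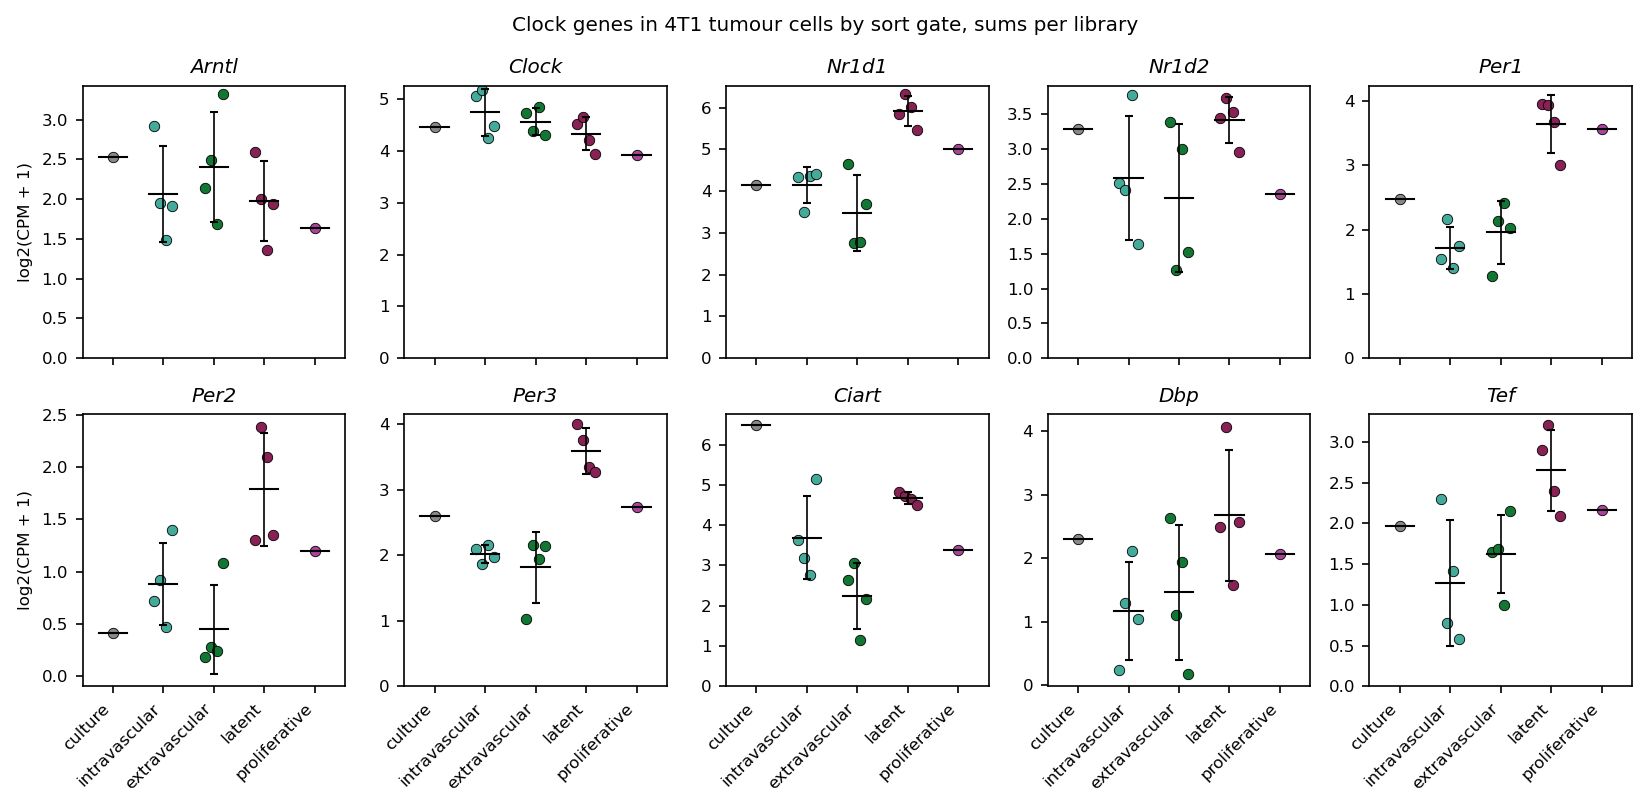
Level of each clock gene in 4T1-GFP TCs by sort gate, as log2 of CPM plus 1 of the reads summed per library. Each point is 1 library of the gates (4 each, with mean and SD) or 1 pool (culture and proliferative, a single value). Nr1d1, Per1 and Per3 of the latent libraries lie above all intravascular and extravascular libraries, and Ciart is highest in culture.

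The remaining genes overlapped between gates by level. Nr1d2 was at 6.78 to 12.3 CPM in latent, 2.10 to 12.7 CPM in intravascular and 1.41 to 9.48 CPM in extravascular libraries, Dbp at 2.01 to 15.9, 0.185 to 3.33 and 0.134 to 5.24 CPM, and Tef at 3.27 to 8.23, 0.501 to 3.93 and 0.994 to 3.44 CPM. The log2 fold changes of latent against intravascular TCs were 1.91 ± 0.95 for Dbp, 1.47 ± 0.61 for Tef and 0.48 ± 0.61 for Nr1d2. All 3 overlapped between gates by level, and by share of cells Nr1d2 (28.8% to 36.5% in latent, 10.98% to 21.5% on day 1.5) and Tef (17.9% to 24.7% in latent, 4.35% to 17.1% on day 1.5) did not. With cells thinned to 50000 reads the separation of Nr1d2 was lost, as latent replicate 4 then stood below extravascular replicate 1 (10.7%). Arntl was at 1.58 to 5.02 CPM in latent and 1.81 to 9.03 CPM in the day 1.5 libraries. Clock, read in 50.0% to 72.2% of cells of the 12 libraries, was at 14.4 to 24.2 CPM in latent, 18.8 to 27.9 CPM in extravascular and 18.0 to 35.2 CPM in intravascular libraries. Its log2 fold change was -0.68 ± 0.24 for latent against intravascular TCs. The activators therefore did not share the higher latent levels of Nr1d1, Per1, Per3 and Ciart.

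Between latent and extravascular TCs the median log2 fold change of the 10 was 1.60, against 0.0043 over 15639 genes tested. By CPM 5 (Per1, Per2, Per3, Ciart and Nr1d1) were higher in every latent library, as were 12.1% of all genes, and by share of cells 7 (those 5, Nr1d2 and Tef), against 24.0%. With cells thinned to 50000 reads the shares of 6 of these 7 still did not overlap, and those of Nr1d2 did. Against intravascular TCs the median was 1.40 (0.015 over all genes), 3 (Per1, Per3 and Nr1d1) did not overlap by CPM (17.9%), and 7 did not overlap by share (10.2%). Thinned to 50000 reads, the shares of 2 of these 7 overlapped, with Per2 at 2.70% in latent replicate 1 and 6.02% in intravascular replicate 4, and Nr1d2 at 10.1% in latent replicate 4 and 13.0% in intravascular replicate 1. These counts describe genes chosen with these values known. Between extravascular and intravascular TCs the median of the 10 was -0.28 (0.00455 over all genes). By share of cells 2 (Clock and Nr1d1) were lower in every extravascular library, against 14.2% of all genes. Of the 3 gates, extravascular cells also had the fewest detected genes (medians of 5721 to 6080.5 per library against 6293.5 to 6608 in intravascular and 6554.5 to 6869.5 in latent libraries). With cells thinned to 50000 reads, shares of Clock were 33.3% to 40.6% in extravascular and 41.8% to 55.8% in intravascular libraries, while those of Nr1d1 overlapped. Immune marker genes summed to 5.49 to 251 CPM in latent libraries and to 2.50 to 11.4 CPM on day 1.5. The aCap list summed to 30.9 to 42.6 CPM in latent, 16.6 to 27.3 in extravascular and 16.3 to 50.6 in intravascular libraries. The gCap list summed to 127 to 137, 98.2 to 145 and 80.4 to 101 CPM in the same order. The other marker lists overlapped between latent and both day 1.5 gates. The part of all these lists in the clock gene levels was not tested.

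Of the further clock genes 17 were tested in TCs, where edgeR called 4.86% of all genes higher in latent than in extravascular TCs, 7.19% higher in latent than in intravascular TCs, and 1.13% higher and 0.991% lower in extravascular than in intravascular TCs. Csnk1e, a kinase of the PER proteins, rose in latent against extravascular TCs (35.6 ± 8.71 against 15.0 ± 1.91 CPM, SD, n = 4 each, log2 fold change 1.10 ± 0.20 (SE), adjusted p = 0.0032 by edgeR), while Rorb and Timeless fell by 1.15 and 0.55 on the log2 scale (adjusted p of 0.0263 and 0.0265 by edgeR), with 6.62% of all genes called lower. Against intravascular TCs, 1 of the 17 rose (Csnk1e) and 2 fell (Rorb, by 2.36, and Bhlhe41, by 1.20), with 8.18% of all genes called lower. Bhlhe41 alone differed between the day 1.5 gates, at 40.6 ± 8.80 CPM in extravascular and 68.7 ± 6.51 CPM in intravascular TCs (adjusted p = 0.0243 by edgeR), a call lost without intravascular replicate 1 or 4 or extravascular replicate 2, 3 or 4. The latent-extravascular calls of Rorb and Timeless were both lost without extravascular replicate 1 or 3 or latent replicate 2 or 4, that of Rorb also without latent replicate 3, and that of Timeless also without latent replicate 1 or with the replicate number as a block. The Csnk1e call against intravascular TCs was lost without intravascular replicate 1 or latent replicate 2 or 4. Of 12 immediate early genes 6 rose from extravascular to latent TCs (Fos, Dusp1, Nr4a1, Jun, Atf3 and Btg2), with Fos at 327 ± 42.9 against 79.2 ± 30.2 CPM, and 9 rose against intravascular TCs. Of these calls, those of Atf3 and Btg2 against extravascular TCs were each lost without any of 5 single libraries (extravascular replicates 3 and 4 and latent replicate 1 for both), and that of Jund against intravascular TCs without any single library but extravascular replicate 1 or 4. Of 9 glucocorticoid-induced genes tested 1, Tsc22d3, rose in both (20.1 ± 3.08 CPM in latent, 8.01 ± 1.73 in extravascular and 7.14 ± 2.99 in intravascular libraries). Some handling genes, mainly immediate early ones, were thus higher in the latent gate beside the clock genes. Their part in the clock gene levels was not tested.

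Of the animals, 3 of day 1.5 and 3 of day 3.5 gave both ECs and TCs, which allows the same gene to be read in both kinds of cell of an animal. On day 1.5 Nr1d1 was at 0.436, 5.31 and 5.45 CPM in ECs and at 24.3, 5.76 and 5.84 CPM in extravascular TCs of the same 3 animals in the same order. On day 3.5 it was at 51.0, 63.9 and 36.6 CPM in ECs and at 56.8, 79.6 and 63.9 CPM in latent TCs. Per3 was at 6.66, 38.8 and 10.4 CPM in ECs and 1.03, 3.49 and 2.83 CPM in extravascular TCs on day 1.5, and at 41.9, 61.3 and 77.6 CPM and 15.1, 12.6 and 9.15 CPM on day 3.5. Both genes were thus higher on day 3.5 in either kind of cell, in every animal of that day. Against the extravascular gate the same held over these animals for Per2 and Nr1d2, so for 4 of the 10 genes. How many of all genes do so was not counted. Over all 4 libraries of each gate Nr1d2 overlapped (6.78 CPM in latent replicate 4, 9.48 CPM in extravascular replicate 1). Intravascular replicate 3 held Nr1d2 at 12.7 CPM, above every latent library. Over these animals Per1, Ciart and Tef were higher without overlap in latent than in extravascular TCs and overlapped between days in ECs, and Dbp, Clock and Arntl overlapped in both. Over all 4 libraries Tef overlapped too (3.27 CPM in latent replicate 4, 3.44 CPM in extravascular replicate 4). In both kinds of cell the day also carries the date of sampling, and day and date cannot be told apart in TCs.

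**Figure D4:**
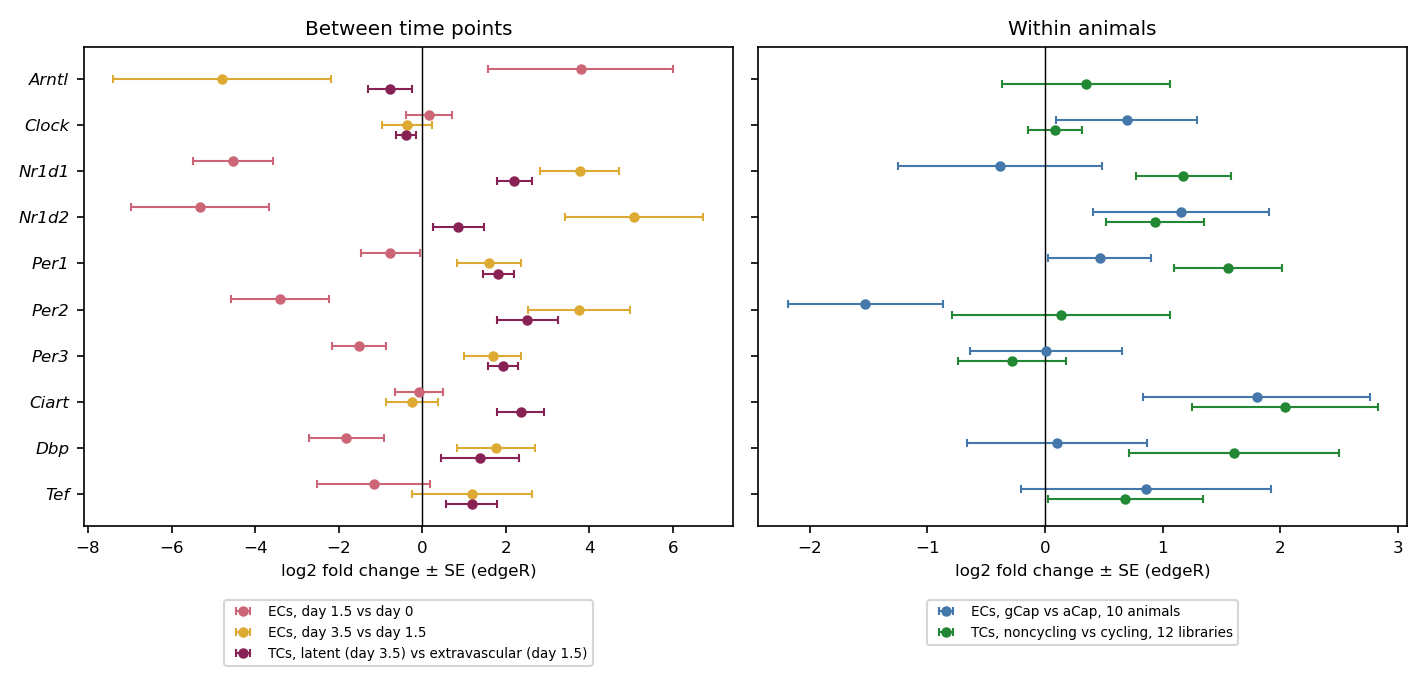
Fitted log2 fold changes of the 10 clock genes with SE, by edgeR. The left panel shows ECs of day 1.5 against day 0 and day 3.5 against day 1.5, and latent against extravascular TCs. The right panel shows gCap against aCap ECs within 10 animals (9 genes) and noncycling against cycling TCs within 12 libraries. Nr1d1 lies at -4.53 and 3.77 in the EC comparisons and at 2.20 in TCs.

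Latent cells are defined by having kept their dye, so the cell cycle was compared within each gate. TCs were called cycling when their S-phase and G2M module scores summed to above 0, which gave 47 to 66 cycling and 16 to 38 noncycling cells per library, with 154 TCs within 0.1 of the limit. By edgeR with the library as a block 0 of the 10 clock genes passed, against 4.49% of 12757 genes (1.36% higher in noncycling cells). Intravascular and extravascular libraries came from the same animals, so the 12 libraries are not 12 animals. Fitted levels of 9 of the 10 were higher in noncycling cells, with a median log2 difference of 0.81 against -0.077 over all genes (0.12 with the scaling of DESeq2). Nr1d1 was at 50.8 ± 51.8 CPM in noncycling and 19.4 ± 16.7 CPM in cycling cells (SD, n = 12), higher in 11 of 12 libraries, with a log2 difference of 1.175 ± 0.405 (SE) and an adjusted p of 0.122. Per1 was at 10.1 ± 8.45 against 3.79 ± 3.34 CPM, higher in 10 of 12 libraries, with a log2 difference of 1.55 ± 0.46 and an adjusted p of 0.0660. Ciart was at 31.2 ± 31.7 against 7.32 ± 6.64 CPM, higher in 9 of 12 libraries, with a log2 difference of 2.04 ± 0.79 and an adjusted p of 0.178. DESeq2 called these 3 of the 10, against 3.47% of all genes higher by this tool, and edgeR called Per1 without extravascular replicate 1 or 3 and Nr1d1 without intravascular replicate 1.

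Within latent TCs alone, Nr1d1 was at 109 ± 47.8 CPM in noncycling and 34.9 ± 19.96 CPM in cycling cells (SD, n = 4), and cycling latent cells (10.6 to 59.5 CPM) overlapped cycling extravascular cells (4.06 to 23.9 CPM). Per1 was at 20.02 ± 6.71 and 7.79 ± 2.08 CPM in noncycling and cycling latent cells and at 2.78 ± 1.45 CPM in cycling extravascular cells, and there cycling latent libraries (4.99 to 9.40 CPM) were above all cycling extravascular libraries (1.74 to 4.91 CPM). Per3 was at 10.4 ± 10.5 CPM in noncycling and 11.9 ± 1.95 CPM in cycling latent cells, and lower in noncycling cells in 3 of the 4 libraries. Both activators were higher in noncycling cells of all 4 latent libraries, Clock at 34.9, 29.0, 27.4 and 23.0 CPM against 15.9, 20.9, 14.1 and 9.95 CPM, and Arntl at 12.8, 3.90, 4.13 and 5.06 CPM against 1.42, 2.38, 0.726 and 1.68 CPM. This was seen in the latent gate after the values were known and was not tested there. Over all 12 libraries the fitted log2 differences were 0.09 ± 0.23 for Clock, 0.35 ± 0.71 for Arntl and -0.28 ± 0.46 for Per3. Of the other lists edgeR called 1 of 9 glucocorticoid-induced genes (Klf9, itself an output of the clock, at 13.0 ± 8.86 against 4.17 ± 2.65 CPM, log2 difference 1.75 ± 0.33, adjusted p = 0.0042) and 2 of 12 immediate early genes (Atf3 and Jund) higher in noncycling cells, and 0 of 16 further clock genes. The Jund call was lost without any single library but intravascular replicate 3 and extravascular replicates 1 and 3.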

How the data were processed

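Single cells were sorted into plates and sequenced by SMART-Seq2, without molecular identifiers and without strand. The deposited raw tables hold estimated counts per gene and cell, made by the authors with Salmon 0.7.2 on GRCm38. The authors' filtered tables hold log10 values (count over the mean of housekeeping genes, scaled by a constant, plus 1) of the kept cells, which had at least 1000 (EC) or 2500 (TC) genes, with immune and mural cells removed from ECs. Estimated counts of kept cells were summed per library, rounded and divided by library totals to give CPM. Tests used edgeR 4.0.16 (quasi-likelihood, filterByExpr, TMM) in R 4.3.3, with DESeq2 1.42.0 and limma 3.58.1 on mean log10 values as alternatives, Benjamini-Hochberg over all genes tested, and an adjusted p under 0.05 as the threshold. TC libraries of culture and the proliferative gate entered the fit as 1 pool each and inform no spread. EC classes and cycling TCs came from Seurat 5.3.0 module scores. Shares carry exact binomial (Clopper-Pearson) 95% intervals where printed. Intervals and limits cover counting error only.

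The 10 genes, the gene lists and the tests were chosen with earlier results of these data known. Named were the 10 genes and, of each list, the 3 of smallest p where any passed and up to 3 others of the highest level. Other list genes are named where a count of calls is given, and were picked after their values were seen. Likeness was ranked by Pearson's r among genes of at least 20 CPM and read in at least 5% of cells, the 5 highest for each gene. Same-numbered intravascular and extravascular libraries came from the same animals by the cell annotation (correlation of deviations from group means -0.030 to 0.075). So did EC and gate libraries of the same number and day, and between days the numbers are names only. p-values measure the spread between animals, and for noncycling against cycling TCs the spread between libraries. Of these libraries the intravascular and extravascular ones share their animals. The main fit of extravascular against intravascular TCs did not use that pairing. A deposited log10 table of capillary cells alone was not used here.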

Additional observations from a re-analysis of the deposited data

Results flagged for a closer look

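Over 10 genes, 4 groups of 4 libraries and 2 measures (CPM and share of cells), in 6 of 80 combinations 1 library stood apart from the other 3 by Dixon's test at 95%, where chance gives about 1 in 20. In ECs of day 0, replicate 4 had Per1 in 28.3% of cells, against 10.8% to 13.7% in the other animals, and Dbp at 119.7 CPM, against 21.2 to 27.6 CPM. In intravascular TCs, replicate 2 had Nr1d1 at 10.3 CPM, against 19.3 to 20.2 CPM. In replicates 1, 3 and 4 a single cell held 54.5%, 47.8% and 73.0% of these reads. Without the top cell of each library they were at 8.99, 10.4 and 5.57 CPM, and replicate 2 was at 9.31 CPM. In extravascular TCs, replicate 4 had Per2 at 1.12 CPM, against 0.136 to 0.208 CPM, and replicate 1 had Dbp in 9.33% of cells, against 1.22% to 1.45%. In latent TCs, replicate 2 had Nr1d1 in 69.4% of cells, against 50.0% to 51.2%.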

How the results depend on the processing

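No reported log2 fold change or level difference past its threshold changed sign under the alternatives run, but the median over all genes did for gCap against aCap (0.25, with -0.19 by DESeq2 and -0.065 without the block) and for noncycling against cycling (-0.077, with 0.12 and 0.089). Numbers of genes called from day 0 to day 1.5 were 0 by edgeR, 371 by DESeq2, 50 by limma and 1 with all cells of at least 1000 genes, and 0 to 1 without single libraries. From day 1.5 to day 3.5 DESeq2 called 137, and from day 0 to day 3.5 DESeq2 called 508, limma 22 and the fit of all cells 1, with 0 to 1 without single libraries. Extravascular against intravascular TCs gave 332 by edgeR, 1426 by DESeq2, 1309 by limma, 96 without a filter on low counts and 10 (without extravascular replicate 3) to 659 (without extravascular replicate 1) without single libraries. Latent against extravascular TCs gave 1795, with 2905 by DESeq2 and 4874 by limma, and latent against intravascular TCs 2404, with 3628 by limma. The direction of calls differed too. For latent against extravascular TCs limma called 3826 higher and 1048 lower, and edgeR 760 and 1035. For extravascular against intravascular TCs limma called 157 higher and 1152 lower, and edgeR 177 and 155. gCap against aCap gave 1197, with 3649 by DESeq2, and noncycling against cycling 573, with 1529 by DESeq2. With the replicate number as a block, which ended only the Timeless call among the list genes named, the 3 TC comparisons gave 375, 1772 and 2486 calls and the EC comparisons 0, as they did with sort day as a term. Without the block, gCap against aCap gave 1087 and noncycling against cycling 464 calls, and Tsc22d3, Sult1a1 and Ier2 no longer passed between the EC classes. Between days EC replicate numbers are names only (correlations of same-numbered libraries -0.042 to 0.046). The cause of these differences was not tested. The 4 labelled proliferative replicates could not be taken as 4 values, since the cell annotation gives all cells to 1 animal. A fitted value was said to stay if it lay within 1 SE of the main one in the day and gate comparisons. By limma it had only to keep its sign, and in the other comparisons its side of the threshold. These limits are loose where the SE is large, so the counts below do not measure how firm the values are. Of the fitted values of the 10 genes, 446 stayed, 16 moved and 4 passed the threshold newly under other settings. With 1 library left out 842 stayed, 25 moved and 3 passed newly. From day 0 to day 1.5, leaving out day 1.5 replicate 2 put Per2 at -5.20, Per3 at -2.61, Tef at -3.10, Nr1d2 at -9.28 and Arntl at 1.33 on the log2 scale, leaving out day 1.5 replicate 3 put Per1 at -2.06, and leaving out day 0 replicate 4 put Dbp at -0.77. From day 1.5 to day 3.5, Arntl was at -10.37 without day 3.5 replicate 3. Leaving out day 1.5 replicate 2 put Nr1d2 at 9.04, Per2 at 5.56, Per3 at 2.82 and Tef at 3.15 there. Leaving out day 1.5 replicate 3 put Per1 at 2.92. Nr1d2 of extravascular against intravascular TCs turned from -0.38 to 0.34 without intravascular replicate 3, and Dbp of day 3.5 against day 0 from -0.044 to 1.01 without day 0 replicate 4. For latent against intravascular TCs, Tef went from 1.47 to 2.27 without intravascular replicate 1. Nr1d2 went from 0.48 to 1.20 there without intravascular replicate 3. Of level differences 109 stayed and 11 moved, and of differences in share of cells 51 stayed and 29 moved. Staying here meant a shift of at most 1 SD of the groups, or for log10 values only the same sign. Where 1 cell held most reads of a gene in a library, the level has little precision.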
